A study of Rattus norvegicus with 8 samples.

Results

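The genes described here are abundant transcripts that stood at a high value in some rat brain libraries and at a very low value in others, in both the prefrontal cortex (PFC) and the hippocampus. The genes were chosen by their own values: the mean over the 8 libraries had to reach 1 FPKM (fragment count relative to gene length in kilobases and to the library's mapped fragments), and, in each tissue taken alone, the highest value had to reach 10 FPKM with the lowest at most 1/8 of it. This rule gave 132 of 31185 listed genes, or of the 12155 with a mean of at least 1 FPKM. The spread of each gene within a tissue is therefore fixed by how it was chosen and is given as a description. The rule did not use which treatments were high, nor whether the same treatments were high in both tissues. It did use the levels in part, since a gene had to reach 10 FPKM in each tissue.

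PFC and hippocampus are both targets of stress hormones, and the PFC receives a direct projection from the hippocampus. Messenger RNA levels in bulk brain tissue average over neurons, glia and blood vessel cells, so most abundant transcripts differ little between dissections of the same region. In bulk tissue, fewer cells of a type and less RNA per cell cannot be told apart.

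The animals were male adults of the outbred Sprague-Dawley strain, and each tissue was profiled under 4 treatments with 1 library each. Control rats were unstressed and received saline. The other treatments were the stress protocol abbreviated CMS in the labels with saline, with methylglyoxal (MGO, a reactive dicarbonyl that arises mainly as a by-product of glycolysis) or with luteolin (a plant flavonoid), given by daily injection in the last 3 weeks. MGO is listed at 5 mM/kg/day in the series design and at 100 mM/kg in the sample protocol, and luteolin at 10 mg/kg/day. The protocol places dissection in week 7 and names 1 unstressed rat and 2 stressed rats, given saline or MGO, with both tissues taken. A rat given luteolin is not mentioned there, and it is not stated that both CMS + luteolin libraries come from the same animal. With 1 library per tissue and treatment, treatment and animal cannot be told apart, and no difference between treatments has a replicate check or a p-value.

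The Ensembl IDs of the table were not paired with symbols in the reference used here (0 of 31185 IDs matched). What the proteins do, marker genes of the tissues and promoter sequences were therefore not analysed here, and examples are given by ID. The sums of FPKM per library ran from 300281 to 352740, and relative depths read from the steps between low values ran from 0.856 to 1.34 with control PFC set to 1. The CMS + luteolin hippocampus library stood apart from the others of its tissue: the median absolute log2 difference over all 12155 genes was 0.275 to 0.300 in the 3 pairs with it and 0.131 to 0.140 in the other 3 hippocampus pairs.

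The switching genes spanned a wide range of abundance. Their means over the 8 libraries ran from 3.18 to 290.0 FPKM with a median of 13.1, and the median of the highest PFC value was 28.5 FPKM, against 26.1 FPKM for all 5527 genes that reached 10 FPKM in both tissues. The lowest PFC value was listed at 0 for 40 of the 132 genes, lay above 0 and under 1 FPKM for 42, from 1 to under 5 FPKM for 36 and at 5 FPKM or more for 14. In hippocampus the corresponding counts were 38, 41, 41 and 12. In all, 47 genes were listed at 0 in at least 1 library, and no fold is given for these.

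ENSRNOG00000030963 had the widest range in the tissue where its range was narrower. In PFC it was listed at 0 in control, at 443 FPKM in CMS + saline, at 646 FPKM in CMS + MGO and at 0 in CMS + luteolin. In hippocampus it was at 535 FPKM in CMS + MGO and listed at 0 in the other 3 libraries. It was thus among the abundant genes of 3 libraries and without a value above 0 in 5. ENSRNOG00000021259 had the highest mean. Its PFC values were 44.7 FPKM in control, 492 in CMS + saline, 524 in CMS + MGO and 499 in CMS + luteolin, and the hippocampus values were 61.3, 40.6, 574 and 83.6 FPKM in the same order. Its control value was the low one in PFC, whereas CMS + MGO gave the only high value in hippocampus.

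**Figure D1:**
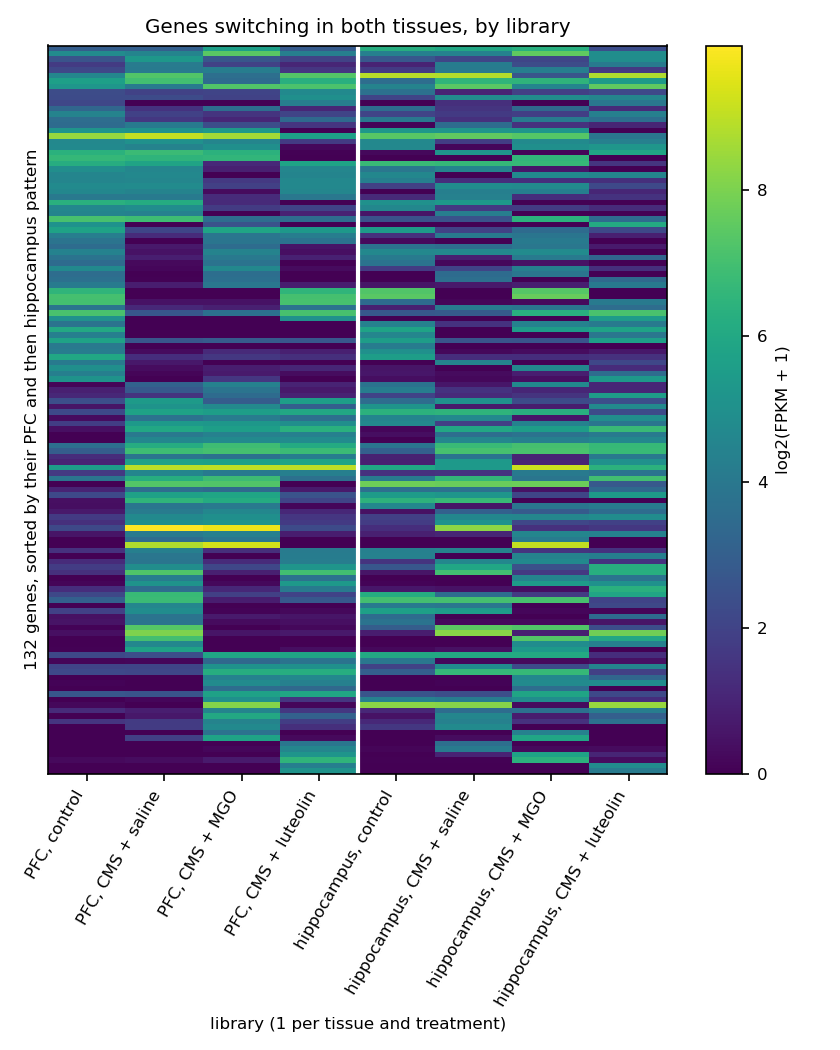
Values of the 132 genes (rows, sorted by pattern) in the 8 libraries (columns, PFC left and hippocampus right of the white line) on the log2(FPKM + 1) colour scale. The blocks of high and low values that sorting makes in PFC mostly break up in hippocampus, where 19 of the 132 genes kept the PFC pattern.

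Few values lay between the limits set here for high and low. A value is called high here when it was at least 1/2 of the gene's highest value in that tissue and low when it was at most 1/8 of it. Of the 1056 values, 490 were high, 514 low and 52 between. Each gene has by its choice 1 highest and 1 lowest library per tissue. Of the remaining 528 values, which the rule leaves free, 226 were high, 250 low and 52 (9.85%) between. For 98 of the 132 genes no value in any of the 8 libraries lay between.

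The high level of a gene was similar in both tissues. The mean of the high hippocampus libraries was within 2-fold of the mean of the high PFC libraries for 120 of 132 genes (90.9%), with a median log2 ratio of 0.03 and a range from -1.02 at the 5th percentile to 0.82 at the 95th. The highest single values of all 5527 genes reaching 10 FPKM in both tissues were within 2-fold between the tissues for 94.0%, and for 90.9% of the switching genes. Requiring 10 FPKM in each tissue favours such likeness in both sets. Within a tissue the high values lie within 2-fold of each other by definition; taken over both tissues they did so for 114 genes, with a median range of 1.44-fold. Low values were compared for the 44 genes whose low libraries were all at 1 FPKM or above, a condition that itself narrows their range. For 33 of them the low values of both tissues lay within 2-fold, with a median range of 1.35-fold. The low values of the other 88 genes include 0 or values under 1 FPKM, and their ranges are not given. ENSRNOG00000015691 is an example of both levels: control PFC and control hippocampus gave 61.1 and 46.5 FPKM, and the 6 libraries of stressed rats gave 1.46 to 2.08 FPKM.

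**Figure D2:**
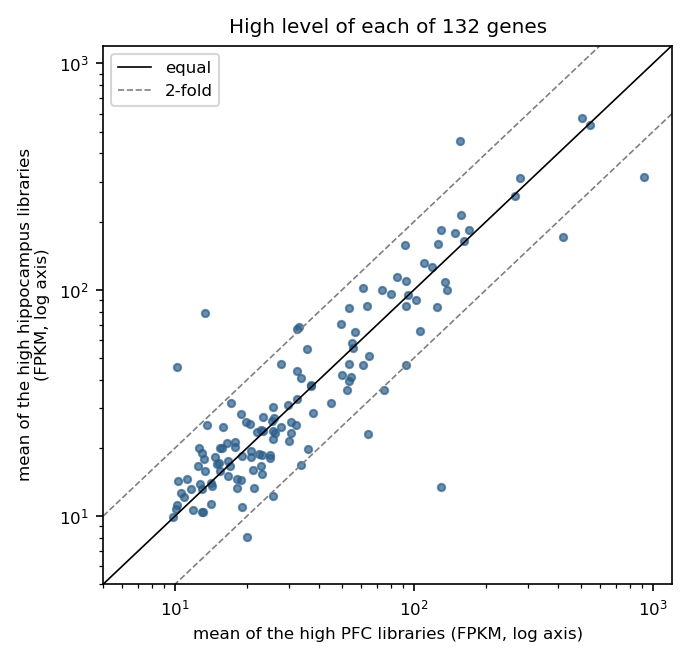
Mean of the high hippocampus libraries against the mean of the high PFC libraries for each of the 132 genes (points; both axes logarithmic, in FPKM), with lines of equality and of 2-fold difference. Points follow the line of equality over 2 orders of size, with 120 of 132 between the dashed lines.

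The exceptions to a shared high level were 5 genes over 2-fold higher in hippocampus and 7 over 2-fold higher in PFC. ENSRNOG00000021110 reached 126 and 134 FPKM in PFC of control and CMS + luteolin rats, 10.4 and 16.4 FPKM in the same treatments of hippocampus, and at most 0.4 FPKM in the other 4 libraries. It was high in the same treatments of both tissues but at different heights. ENSRNOG00000009140 was at 79.0 FPKM in CMS + luteolin hippocampus and 16 FPKM in CMS + luteolin PFC.

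Every library held both states in quantity. In PFC, 50 genes were high in control, 69 in CMS + saline, 67 in CMS + MGO and 58 in CMS + luteolin. In hippocampus the counts were 52, 64, 68 and 62. The control libraries thus had the fewest high genes in both tissues, and 71 and 75 of the 132 genes were low in them. Control PFC did not have the most low genes of its tissue. CMS + luteolin PFC had 72 low genes and 2 in between, against 11 in between in control PFC. The number listed at 0 ran from 13 in CMS + MGO hippocampus to 24 in CMS + saline hippocampus.

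**Figure D3:**
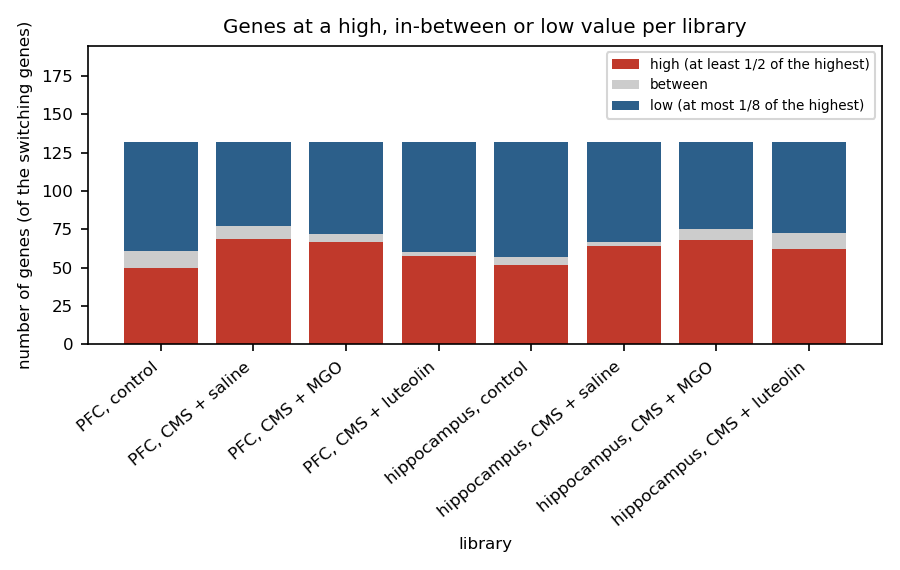
Number of the 132 genes at a high, in-between or low value in each library. The bars of high genes run from 50 in control PFC to 69 in CMS + saline PFC, and the control bar is the shortest in each tissue.

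Summed over the 132 genes, the values made up 0.813% of all FPKM in control PFC, 1.68% in CMS + saline PFC, 1.60% in CMS + MGO PFC and 1.03% in CMS + luteolin PFC. The hippocampus shares were 0.985%, 1.32%, 1.44% and 1.19%. These sums rest on few genes. ENSRNOG00000001057 alone was at 1008 FPKM of a sum of 5937 FPKM in CMS + saline PFC and at 830 FPKM of 5303 FPKM in CMS + MGO PFC, but at 3.43 and 3.89 FPKM in the other 2 PFC libraries.

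Being alone in its state was found for every treatment. A treatment was alone high, with the other 3 libraries of the tissue low, for 11 genes in control, 11 in CMS + saline, 8 in CMS + MGO and 6 in CMS + luteolin PFC, and for 9, 7, 13 and 10 genes in hippocampus. It was alone low, with the other 3 high, for 12, 3, 7 and 6 genes in PFC and 9, 10, 5 and 11 in hippocampus. The most frequent PFC pattern had CMS + saline and CMS + MGO high and the other 2 low, in 13 genes. It was seen in 7 genes of hippocampus, and in no gene in both tissues.

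The tissues of a treatment often disagreed. Over the 4 treatments, 291 of 528 values (55.1%) were high in both tissues or low in both, 189 (35.8%) were high in one and low in the other, and 48 involved a value in between. The control libraries agreed for 73 genes, 27 high in both and 46 low in both. CMS + saline agreed for 77 genes (43 and 34), CMS + MGO for 74 (42 and 32) and CMS + luteolin for 67 (30 and 37). A PFC and a hippocampus library of different treatments, a pairing that the design does not link, agreed for 717 of 1584 values (45.3%). These 12 pairings ran from 37.1% to 56.1%, and the 4 of the same treatment from 50.8% to 58.3%, so the ranges overlap. Each hippocampus library shared more states with the PFC library of its own treatment than with any other. Control PFC agreed for 73 genes within its treatment and for 49 to 58 with the other hippocampus libraries, and CMS + saline PFC for 77 against 61 to 63. The other 2 PFC libraries did not stand apart in this way. CMS + MGO PFC had the state of CMS + saline hippocampus for 74 genes, as many as it shared with CMS + MGO hippocampus. CMS + luteolin PFC had the state of CMS + MGO hippocampus for 68 genes and that of its own hippocampus library for 67. The pairings share libraries and genes, and no test was made of this difference. For each gene, its numbers of high and low libraries in each tissue fix the agreement summed over all 16 pairings. More agreement within treatments therefore means less across treatments, and the 45.3% is not an independent baseline.

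**Figure D4:**
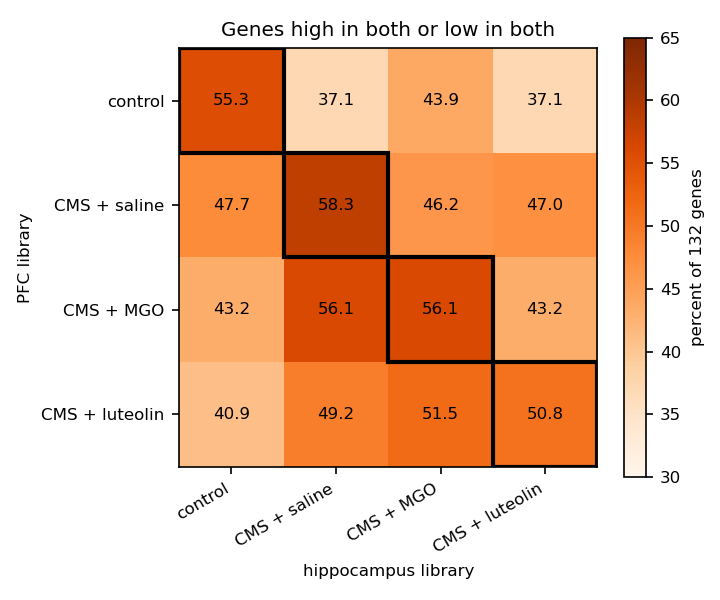
Percent of the 132 genes that were high in both or low in both, for each PFC library (rows) and each hippocampus library (columns); black frames mark libraries of the same treatment. The framed cells lie between 50.8% and 58.3% and the others between 37.1% and 56.1%.

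Gene by gene, all 4 treatments agreed for 18 genes, 3 for 32, 2 for 46, 1 for 31 and none for 5. The library with the highest value belonged to the same treatment in both tissues for 46 of 132 genes. Of the 101 genes with at most 1 library at 0 in each tissue, the lowest value fell in the same treatment for 38. The states over all 4 treatments were the same in PFC and hippocampus for 19 genes (14.4%), 1 of which had a value in between, and the exact reverse for 2.

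Control stood alone in 7 of these 19 genes, low in 4 and high in 3. ENSRNOG00000001030 had control values of 6.65 FPKM in PFC and 7.17 FPKM in hippocampus, and the 6 libraries of stressed rats ranged from 106 to 137 FPKM. ENSRNOG00000008615 had control values of 11.3 and 13.4 FPKM and from 66.8 to 129 FPKM elsewhere. In each tissue the stressed libraries of these genes lie above control by the definition of the pattern. In the other direction, besides ENSRNOG00000015691 above, ENSRNOG00000047003 had control values of 17.2 FPKM in PFC and 31.5 FPKM in hippocampus, while the 6 stressed libraries ranged from 0.147 to 1.29 FPKM.

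CMS + MGO stood alone high in both tissues for 2 genes and alone low for none. ENSRNOG00000018448 reached 54.9 FPKM with MGO in PFC and 58.4 FPKM with MGO in hippocampus, with 0 to 2.73 FPKM in the other 6 libraries. ENSRNOG00000003599 was at 12.6 and 19.9 FPKM with MGO and listed at 0 in the other 6. Both genes were thus set apart from the other libraries by the MGO-treated rat in each tissue.

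CMS + luteolin stood alone high for 2 genes and alone low for 2. ENSRNOG00000009209 reached 18.9 FPKM with luteolin in PFC and 28.2 FPKM in hippocampus, and ENSRNOG00000033625 reached 33.5 and 16.9 FPKM. Both were listed at 0 in the other 6 libraries. ENSRNOG00000039876 was the reverse, listed at 0 in both luteolin libraries and from 33.3 to 42.5 FPKM in the other 6. ENSRNOG00000017444 was at 49.7 FPKM in CMS + luteolin PFC against 346 to 531 FPKM in the other PFC libraries, and at 14.0 FPKM in CMS + luteolin hippocampus against 164 to 184 FPKM.

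CMS + saline stood alone in the same state of both tissues for 0 genes, although it was alone high or low for 14 genes in PFC and 17 in hippocampus. The remaining genes with 1 pattern in both tissues had other groupings. ENSRNOG00000043300 was high in CMS + saline (149 FPKM in PFC, 125 FPKM in hippocampus) and CMS + luteolin (125 and 75.1 FPKM), and at most 2.17 FPKM in the control and CMS + MGO libraries. ENSRNOG00000007830 was high in the libraries of both saline-treated groups, from 32.3 to 79.8 FPKM, and at most 1.26 FPKM with either drug. ENSRNOG00000014215 was high with both drugs, from 19.4 to 28.0 FPKM, and at most 0.0758 FPKM with saline. The descriptions of the CMS + saline libraries begin with another code than those of the other 6. If that code marks a batch, which the labels do not say, it and CMS + saline cannot be told apart.

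In other genes the tissues of a treatment stood at opposite levels. ENSRNOG00000001436 reached 276 FPKM with MGO in PFC but 0.233 FPKM with MGO in hippocampus. In the other treatments the PFC values were at most 0.173 FPKM and the hippocampus values 304 in control, 283 in CMS + saline and 345 FPKM in CMS + luteolin. ENSRNOG00000016399 was the other full reverse: it was at 11.9 and 11.8 FPKM in control and CMS + MGO PFC, at 11.5 and 9.79 FPKM in CMS + saline and CMS + luteolin hippocampus, and at most 0.0525 FPKM in the other 4 libraries. High values in these genes were alike in height wherever they occurred.

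Some genes shared their states over all 8 libraries with at least 1 other gene. The 132 genes held 108 distinct patterns, and 21 patterns were held by at least 2 genes, 45 genes in all, with at most 4 genes for 1 pattern. ENSRNOG00000048980 and ENSRNOG00000055068 were such a pair. The former was at 91.7, 91.4, 154 and 160 FPKM in control PFC, CMS + luteolin PFC, control hippocampus and CMS + MGO hippocampus, and the latter at 129, 132, 169 and 200 FPKM. Both were listed at 0 in the other 4 libraries.

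Other genes were mirror images: where one was high the other was low, and their sum varied little. This was searched for after the values were seen, among 518 genes averaging 1 FPKM or more that varied at least 4-fold in both tissues, and it has no test. For 12 of the 132 genes (9.09%) there was a partner with which the sum stayed within 1.5-fold in each tissue. They made 9 pairs out of 59598 compared, of which 3 joined 2 switching genes. The same search found a partner for 47 of the other 386 genes (12.2%), so partners were not more frequent among the switching genes. The number depends on the limit, with 2 genes at 1.25-fold and 77 at 2-fold.

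ENSRNOG00000053557 and ENSRNOG00000042838 were the closest pair. The PFC values of the former were 22.5 FPKM in control, 24.5 in CMS + saline, 0 in CMS + MGO and 21.7 in CMS + luteolin, and its hippocampus values 23.7, 0, 25.7 and 22.4 FPKM. Those of the latter, in the same order, were 0, 2.29, 25.3 and 1.53 FPKM for PFC and 2.1, 26.3, 0 and 0 FPKM for hippocampus. Each was high where the other was low or listed at 0, and their sum was 24.4 ± 1.97 FPKM over the 4 PFC libraries and 25.0 ± 1.80 FPKM over the 4 hippocampus libraries (SD, across treatments).

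ENSRNOG00000053923 and ENSRNOG00000033741 exchanged places in CMS + luteolin PFC (2.36 and 22.9 FPKM) and CMS + saline hippocampus (2.5 and 16.6 FPKM). In the other 6 libraries the former was at 19.4 to 31.9 FPKM and the latter at most at 0.241 FPKM. ENSRNOG00000004168 and ENSRNOG00000027040 summed to 14.3 to 18.6 FPKM in PFC and 11.2 to 16.3 FPKM in hippocampus. The latter carried most of the sum in CMS + saline PFC, control hippocampus and CMS + luteolin hippocampus, and the former in the other 5. Whether the members of a pair overlap in the genome or share sequence was not tested, since positions were not paired with the IDs.

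**Figure D5:**
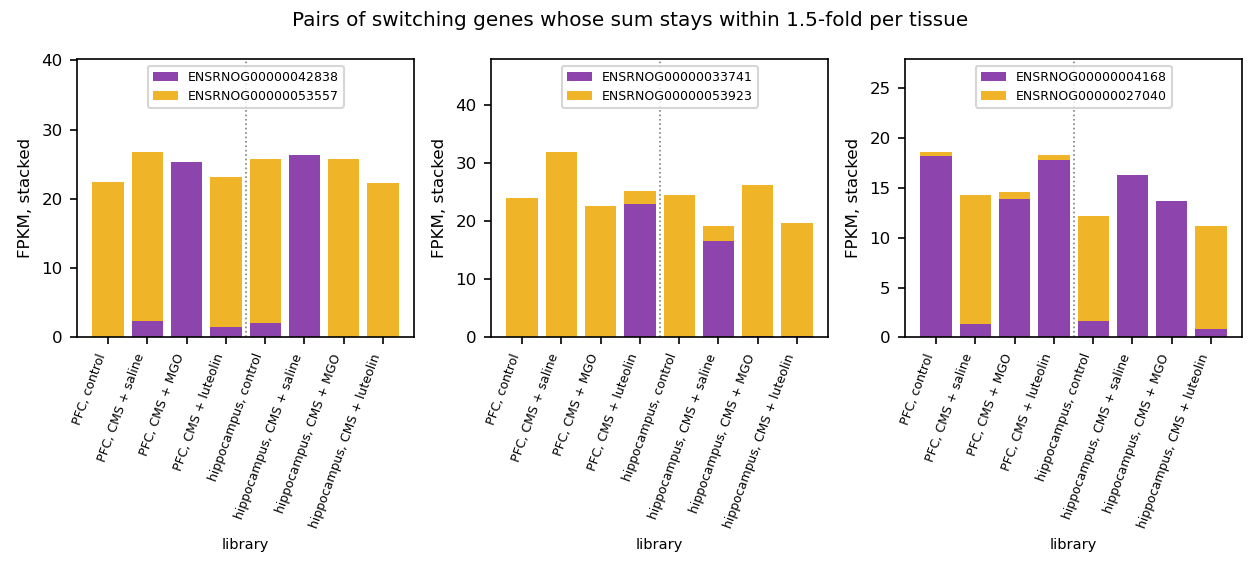
Stacked values in FPKM of 3 pairs of switching genes in the 8 libraries; the dotted line parts PFC from hippocampus. The colours change place between libraries while the total height of the first pair stays between 22.4 and 26.8 FPKM.

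Treatments were compared by the number of switching genes at least 2-fold higher or lower on the log2(FPKM + 1) scale, which understates the differences of low genes. The rule drew on these same values, so the counts are a description. The share over all 12155 genes is set beside each count within a tissue. Counts over both tissues, here and for MGO and luteolin below, have no such share and do not set the switching genes apart from other genes. Stress was examined as CMS + saline against control. In PFC, 55 of 132 genes were higher (3.92% of all genes) and 34 lower (2.91%), and in hippocampus 43 were higher (3.17%) and 31 lower (2.49%). The median log2 difference of the 132 genes was 0.11 in PFC and 0 in hippocampus, against -0.02 and 0.00 over all genes. Across the tissues, 22 genes were higher in both, 15 lower in both, 16 at least 2-fold in opposite directions, 57 at least 2-fold in 1 tissue and 22 in neither.

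The MGO libraries were then set against CMS + saline. In PFC, 36 genes were higher (3.32% of all genes) and 36 lower (3.19%), and in hippocampus 40 were higher (2.96%) and 36 lower (3.05%). The same direction was found in both tissues for 28 genes, 13 higher and 15 lower, and opposite directions for 15. ENSRNOG00000018448, alone high with MGO, had the values given above.

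For luteolin the reference was CMS + saline as well. In PFC, 30 genes were higher (2.76% of all genes) and 42 lower (3.75%), and in hippocampus 40 were higher (3.43%) and 37 lower (4.09%). Both tissues had the same direction for 24 genes, 10 higher and 14 lower, and opposite directions for 17. Because CMS + saline enters all 3 comparisons, a gene that differs in that library alone is counted in each of them.

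PFC and hippocampus were compared with limma over all 12155 genes, with treatment as a block. Of the 132 switching genes 2 passed an adjusted p of 0.05, 1 higher in PFC (8.10% of all genes) and 1 higher in hippocampus (7.84%). With treatment as a block, a treatment difference shared by both tissues is removed and disagreement between the tissues enters the error. On the log2 scale the median SE was 0.13 over all genes and 0.96 for the switching genes, 0.14 for the 19 with the same pattern in both tissues and 1.02 for the other 113. Genes with the same pattern in both tissues disagree little by definition, so their smaller SE follows in large part from that grouping. The low count does not show that the tissues were alike. ENSRNOG00000017444 had means of 328 ± 202 FPKM for PFC and 132 ± 78.9 FPKM for hippocampus (SD across treatments, n = 4). This spread includes the switch that the rule required and is not variation between replicates. Its log2 difference was 1.39 (SE 0.14), with an adjusted p of 0.00843 in limma, and it was higher in PFC in each of the 4 treatments. ENSRNOG00000001506 had means of 17.6 ± 17.2 FPKM for PFC and 36.0 ± 36.5 FPKM for hippocampus (SD across treatments, n = 4). Its log2 difference was -0.83 (SE 0.15), with an adjusted p of 0.0266 in limma, and it was lower in PFC in each treatment. This call was lost with no filter on low values (limma adjusted p = 0.098) and without the control, CMS + saline or CMS + luteolin libraries (0.111, 0.103 and 0.0841). Both genes kept 1 pattern over the treatments in both tissues. Without the block, 0 of the switching genes were called (limma, 1 at an unadjusted p under 0.05), and adjusted p was 0.376 and 0.663.

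Of the 351 genes that switched in either tissue, 132 (37.6%) switched in both. Of 6019 genes reaching 10 FPKM in PFC, 244 (4.05%) switched there, and 132 of these (54.1%) also switched in hippocampus. Of 6236 genes reaching 10 FPKM in hippocampus, 239 (3.83%) switched there, and the same 132 made up 55.2%. Among the 112 genes that switched in PFC alone, 58 did not reach 10 FPKM in hippocampus, 18 reached it and varied 2-fold to 8-fold, and 36 reached it and varied less than 2-fold. Among the 107 that switched in hippocampus alone the counts were 55, 24 and 28. A gene could therefore switch in a tissue and be steady at a high level in the other, which was the case for 64 genes.

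At the edge of the rule, ENSRNOG00000009570 and ENSRNOG00000019727 were just inside, with ranges of 8.14-fold and 8.11-fold in the tissue that varied less. ENSRNOG00000001893 and ENSRNOG00000003291 were just outside at 7.94-fold and 7.90-fold. In hippocampus, where its range was narrower, ENSRNOG00000009570 had values of 10.7 FPKM in control, 31.5 in CMS + saline, 3.86 in CMS + MGO and 4.22 in CMS + luteolin. ENSRNOG00000003291 varied less in PFC, with 15.3, 2.34, 18.5 and 3.97 FPKM in the same order.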

How the data were processed

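RNA-seq of 8 tissue samples was used, 1 library per tissue and treatment. Per the submitters' processing notes, the tools were StringTie 1.2.4, HISAT2 2.0.4 and FastQC 0.11.5 and the build was Rnor_6.0. Their roles, the annotation and any filter were not given in the sources used here. Values deposited by the authors were read as FPKM. Neither header nor labels name the unit, which was inferred because StringTie is among the tools and the columns hold fractional values with unequal sums. All 8 value columns were matched by title.

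Absolute depth is unknown. Relative depth came from the ratio at which values under 0.2 FPKM pile up between libraries. Values were otherwise used as deposited; differences used log2(FPKM + 1). The tissues were compared in limma 3.58.1, R 4.3.3 (trend, treatment as block, two-sided, 3 residual degrees of freedom, Benjamini-Hochberg over 12155 genes, threshold 0.05). The block rests on the protocol, which says that both tissues came from each rat it names. The fit and the selection rule were tested on simulated data. Other steps used Python 3.11.15 with pandas 2.3.3.

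The selection rule, lists and comparisons were chosen with earlier results of these data known. Gene lists by symbol could not be evaluated because no ID matched a symbol. Examples were the genes of highest mean per pattern shared by both tissues, the widest range and the highest mean. The edge of the rule, the mirrored pairs and the limma calls gave further examples. All were limited to 2 IDs per direction. ENSRNOG00000021110, ENSRNOG00000009140 and ENSRNOG00000003291 were chosen after their values were seen. ENSRNOG00000016399 met none of these criteria and was named for its full reverse pattern.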

Additional observations from a re-analysis of the deposited data

Results flagged for a closer look

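Some switching genes differed at least 2-fold one way in PFC and the other way in hippocampus under the same comparison. There were 16 for CMS + saline against control, 15 for CMS + MGO against CMS + saline and 17 for CMS + luteolin against CMS + saline. The same direction in both tissues was found for 37, 28 and 24 genes, in the same order of comparisons. The rule required a wide spread in each tissue, and these counts have no share over all genes beside them. With 1 library per tissue and treatment, the difference between the tissues was not tested.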

How the results depend on the processing

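The number of switching genes followed the limits of the rule: 74 with a highest value of at least 20 FPKM, 233 with the lowest at most 1/4 of the highest and 86 at 1/16. With 1 FPKM added to the highest and lowest values before the ratio was taken, 104 of the 132 genes were kept. Leaving out the libraries of 1 treatment gave 83 to 91 genes, as fewer libraries can only narrow a range, and leaving out the CMS + luteolin hippocampus library alone, an alternative chosen after seeing the data, gave 106, all among the 132. Median-ratio scaling gave 134, of which 131 were shared. With values split at the geometric mean of highest and lowest, 0 lay between by construction, and agreement was 59.3% within and 49.3% across treatments. Under the main limits for high and low, agreement was 56.6% and 45.7% without CMS + luteolin, against 55.1% and 45.3% with all treatments. The limma calls among switching genes numbered 1 with no filter on low values, 0 with no replicate block, and 1 to 3 when a treatment pair was left out (1 without control, 1 without CMS + saline). ENSRNOG00000001506 was past the threshold in neither of the first pair of settings (adjusted p = 0.098 and 0.663) nor without control, CMS + saline or CMS + luteolin (0.111, 0.103 and 0.0841). ENSRNOG00000017444 lost its call without the block (0.376), and its adjusted p ran from 0.00853 to 0.0464 under the other alternatives. Mirrored partners were found for 2 genes at 1.25-fold and 77 at 2-fold, limits chosen after seeing the data. Counts of treatment differences stayed within 1.5 times under each alternative run. How far depth limits the low values was not tested.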
